A study of Homo sapiens with 6 samples.

Results

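SOX4 and 9 other genes of the mesenchymal transition were followed through knockdown of BYSL in MDA-MB-231 cells. The list held the transcription factors SOX4, SOX9, SNAI1, SNAI2, ZEB1, ZEB2 and TWIST1 and the marker genes VIM, FN1 and CDH2. Of these 10, 9 had a row in the table of 29538 genes, and all 9 passed the filter on low counts, which left 16412 genes for testing. TWIST1 had no row and was not analysed here. The list was chosen by the fold change of SOX4, which stood among the largest rises of the series, so the change of SOX4 is described without a test. The other genes were listed by name, with earlier results of these data known, and their values come from the fit over all genes.

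MDA-MB-231 is an established human breast cancer line of invasive, mesenchymal-like cells. The control group (siNC) received a negative-control siRNA and the knockdown group (siBYSL) an siRNA against BYSL, SI-BYSL-Homo-838, both at 160 pmol per well with 4 µL of Lipofectamine RNAiMAX. The medium was changed after 6 h and RNA was taken at 48 h, from 3 biological replicates per group. BYSL encodes bystin, which acts in maturation of the small ribosomal subunit. The knockdown group is limited to 1 siRNA in 1 cell line, and because RNA was measured in bulk, fewer expressing cells and less RNA per cell cannot be told apart.

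In the epithelial-mesenchymal transition, epithelial cells lose cadherin junctions and gain a motile, spindle-shaped form. Repressors of the SNAI and ZEB families bind E-box sequences in the promoters of epithelial genes such as CDH1 and lower their transcription, while SOX4 and SOX9 are HMG-box factors that act alongside them in development and carcinoma. Vimentin, fibronectin and N-cadherin are the classical products of the mesenchymal state, and microRNAs of the miR-200 family restrain ZEB1 and ZEB2.

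The reagent and the sites it could pair with are shown first, since bases 2 to 8 of an siRNA strand, the seed, can pair with 3′ UTRs of other transcripts. Capitals mark the seed in the strands.

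Guide (antisense) strand: uAUUCAGCaacgucaucuctt
Passenger (sense) strand: gAGAUGACguugcugaauatt

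Among the 9 genes, the longest annotated 3′ UTR (GENCODE 29) of ZEB1 and that of ZEB2 each held 1 copy of the heptamer GCTGAAT, the reverse complement of the guide seed, and that of SOX9 held 1 copy of GTCATCT, the reverse complement of the passenger seed. The first occurs in 11.9% and the second in 12.1% of 13064 tested genes that have a 3′ UTR in the annotation. SOX4, SNAI1, SNAI2, VIM, FN1 and CDH2 held neither. The heptamer is in capitals within 10 flanking bases on each side.

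ZEB1, guide heptamer, chr10:31529282-31529308, plus strand, GRCh38: ttcatcttgaGCTGAATttgggtaaca
ZEB2, guide heptamer, chr2:144384282-144384308, minus strand, GRCh38: ataatatgatGCTGAATatgccacaag
SOX9, passenger heptamer, chr17:72125613-72125639, plus strand, GRCh38: aaagggtatgGTCATCTgttgttaaat

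No transcript searched of the 9 genes shared more than 9 consecutive bases with the 19-base target of the guide in BYSL (chr6:41931467-41931485), and the longest such run was in ZEB2. The log2 fold change was 0.19 (SE 0.074) for ZEB1 and 0.045 (SE 0.10) for ZEB2, neither called. The part of seed pairing in the values of the 9 genes was not tested.

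Control libraries (siNC) held 28606048 to 30476744 counts and knockdown libraries (siBYSL) 27754883 to 32088817, and levels are given in CPM, counts scaled to a common library size after TMM correction. Values per library are listed in the order of replicates 1, 2 and 3. BYSL itself had 2648 to 3006 counts in the controls and 459 to 519 after knockdown, so every library matched its label. Replicates differed by more than sampling noise, and library siBYSL 3 stood apart from siBYSL 1 and 2, with chi-square values per degree of freedom of 20.1 and 12.3 against 3.21 between those 2 libraries. Of the 9 genes, 7 had their lowest siBYSL level in siBYSL 3, as did 43.7% of all tested genes. The markers of the line were present: VIM, CD44, EGFR, AXL and CAV1 together reached 4820 to 4890 CPM in siNC and 4110 to 4250 CPM in siBYSL. Of these 5, 4 fell (AXL by 0.51, CAV1 by 0.47, EGFR by 0.23 and VIM by 0.21 on the log2 scale) and 1 rose (CD44, 0.19), and their part in the results was not tested. Of 5 genes listed as low or absent in the line, ESR1, PGR and FOXA1 lay under 1 CPM, while ERBB2 stood at 51.3 and 61.9 CPM and GATA3 at 13.3 and 14.1 CPM in siNC and siBYSL.

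Over all 16412 genes, 18.5% (3032) were higher after knockdown and 18.4% (3027) lower by the edgeR quasi-likelihood test with a Benjamini-Hochberg adjusted p below 0.05, 36.9% in all. With library totals in place of TMM factors 67.4% of the calls were rises, and with upper-quartile factors 60.0%. In 24.7% of genes the groups did not overlap with knockdown higher, and in 24.9% with knockdown lower. Of the 8 genes other than SOX4, 4 rose (SNAI1, FN1, SNAI2 and SOX9), 1 fell (VIM) and 3 were not called (ZEB1, ZEB2 and CDH2). The groups did not overlap in the same 5 genes and overlapped in the 3 others. With 8 genes chosen with results known, these counts are a description and not a result about the list.

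**Figure D1:**
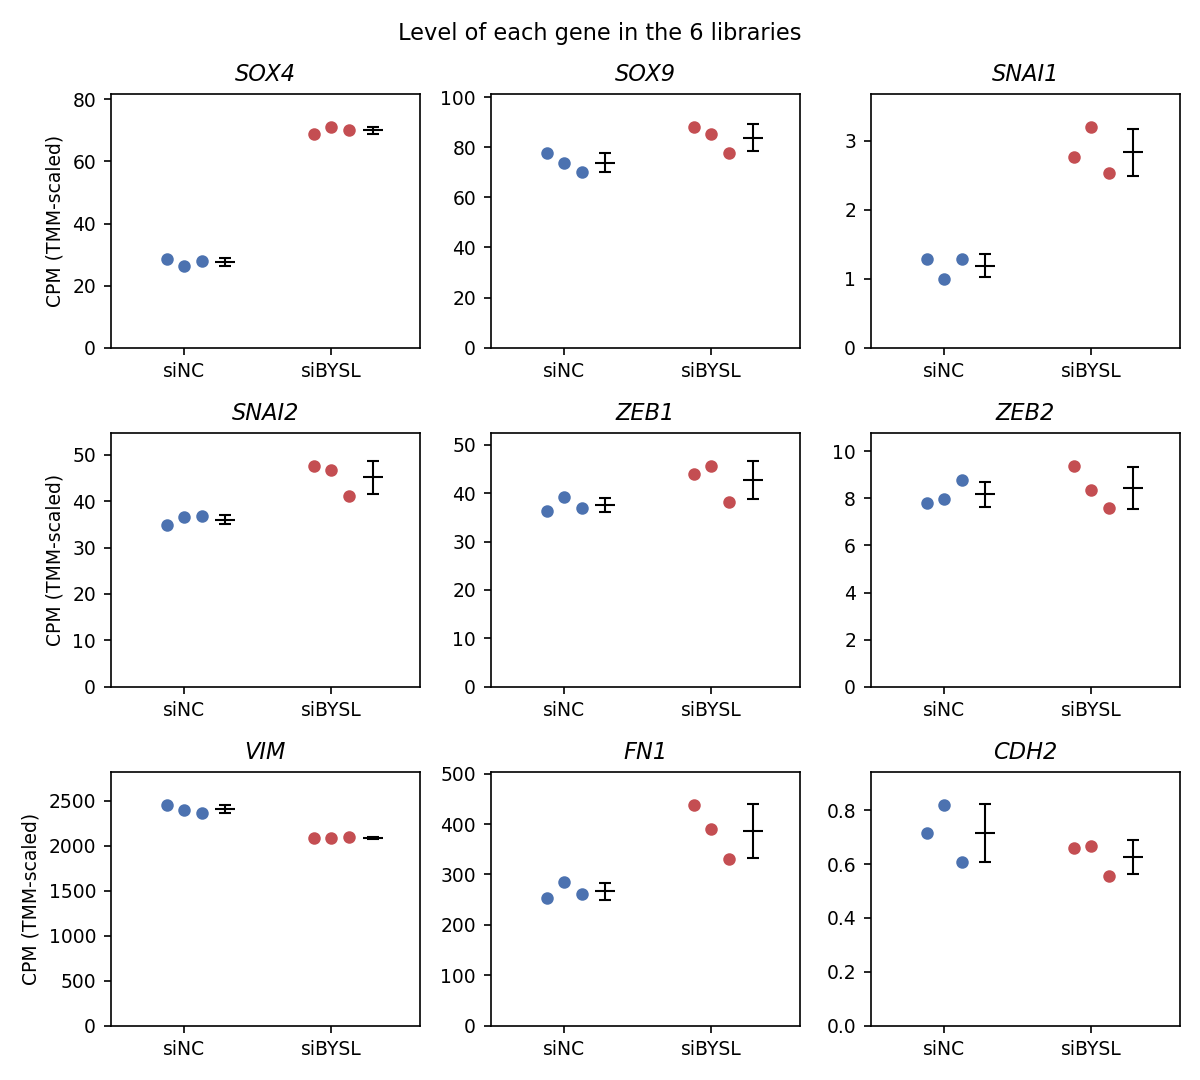
Level of 9 genes in each library, in CPM on TMM-scaled library sizes, with 1 panel per gene and each axis starting at 0; points are libraries siNC 1 to 3 (blue) and siBYSL 1 to 3 (red), and black marks give the mean and SD. SOX4 and SNAI1 show the widest gaps between groups, VIM is the single gene with all siBYSL libraries below all siNC libraries, and siBYSL 3 has the lowest siBYSL point in 7 of the 9 panels.

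SOX4 (ENSG00000124766.7) encodes an HMG-box transcription factor of the SOXC group that takes part in development of the heart and nervous system and is often abundant in carcinomas. The gene spans chr6:21592768-21598619 (GRCh38, plus strand). Its level was 28.7, 26.3 and 27.8 CPM in the controls and 68.9, 71.2 and 70.1 CPM after knockdown. The 3 siBYSL libraries lay close together, 2.54 times as high on average as siNC, and the SDs of 1.2 CPM in both groups were small beside the gap. The log2 fold change was 1.34 (SE 0.058), a size that 0.731% of all tested genes reached or passed. Among 1841 genes called higher with a mean of 10 CPM or more it took rank 3 by fold, below FBN1 (1.56) and above NPR3 (1.31). Over 14 other settings, each library left out among them, its log2 fold change ran from 1.31 to 1.42.

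Other genes with nearly the same profile over the 6 libraries were sought among 9931 genes with a mean of 10 CPM or more, by the Euclidean distance between log2 CPM deviations from each gene's own mean. The nearest was RGS19, a GTPase-activating protein for G protein alpha subunits, at a distance of 0.168 (10.5 ± 0.20 CPM in the controls, 25.8 ± 0.93 CPM after knockdown, SD, n = 3). Next came PODXL, the sialomucin podocalyxin, at 0.244, and FOXP4, a forkhead transcription factor, at 0.258. NPR3, the natriuretic peptide clearance receptor, followed at 0.275 and COL7A1, the anchoring-fibril collagen, at 0.278. The likeness rests on the step between the groups that all 5 share, with log2 fold changes of 1.19 to 1.31, and PODXL differed within siBYSL, where it ran from 285.9 CPM in siBYSL 3 to 341.8 CPM in siBYSL 1.

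The RefSeq promoter window of SOX4 is shown, as that of the gene with the widest change. It spans 250 bases before to 50 after the RefSeq start. The annotations differ here, since the window lies inside the GENCODE span of the gene, downstream of its start at chr6:21592768. Sequence upstream of that start was not searched. The window held neither CAGGTG, the E-box bound by SNAI and ZEB factors, nor AACAAT, a core of SOX binding sites, on either strand.

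SOX4, chr6:21593501-21593800, plus strand, GRCh38.p14: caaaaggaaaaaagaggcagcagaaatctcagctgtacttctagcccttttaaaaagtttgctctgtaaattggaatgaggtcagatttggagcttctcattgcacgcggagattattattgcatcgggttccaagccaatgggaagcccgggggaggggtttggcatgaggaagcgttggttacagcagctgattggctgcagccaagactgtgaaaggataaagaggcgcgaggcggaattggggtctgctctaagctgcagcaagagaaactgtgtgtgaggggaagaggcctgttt

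Over 35116 such windows, 20.6% held the E-box hexamer (CAGGTG or its reverse complement CACCTG) and 10.1% the SOX hexamer (AACAAT or ATTGTT). Windows were at hand for 6 of the 9 genes: SOX4, VIM, FN1 and ZEB2 with 1 each, CDH2 with 2 and ZEB1 with 7. The E-box was found in 2 of the 7 ZEB1 windows and in none of the others, and the SOX hexamer in none. The ZEB1 window with 3 copies follows, with the copies in capitals; ZEB1 was not called, so the window is shown for the sequence alone.

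ZEB1, chr10:31318966-31319265, plus strand, GRCh38.p14: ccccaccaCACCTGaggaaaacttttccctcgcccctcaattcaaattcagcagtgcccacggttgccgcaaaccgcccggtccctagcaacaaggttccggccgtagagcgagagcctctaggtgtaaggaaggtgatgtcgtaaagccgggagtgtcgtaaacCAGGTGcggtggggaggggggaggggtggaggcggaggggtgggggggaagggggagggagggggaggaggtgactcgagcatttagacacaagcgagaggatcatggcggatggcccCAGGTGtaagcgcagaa

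SOX9 (ENSG00000125398.8, chromosome 17), the HMG-box factor that directs cartilage and gonad development and stem-like states of mammary cells, had a much smaller fold change than SOX4. It stood at 77.8, 73.6 and 70.2 CPM in the controls and at 88.2, 85.4 and 77.8 CPM after knockdown, so that siNC 1 and siBYSL 3 nearly met. SOX9 rose by 0.18 on the log2 scale (SE 0.063, adjusted p = 0.0427 by the edgeR quasi-likelihood test). This call was not firm: the adjusted p was 0.0547 with the DESeq2 Wald test and between 0.0532 and 0.193 without siNC 1, siNC 2, siNC 3, siBYSL 1 or siBYSL 2. Per kilobase of annotated exons the ratio of SOX9 to SOX4 was 4.03, 4.17 and 3.75 in the controls and 1.90, 1.78 and 1.65 after knockdown. SOX9 thus remained the more abundant of the pair per length in every library, by a smaller margin in siBYSL.

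Beyond SOX4 and SOX9, 7 of 17 other SOX genes passed the filter. Of these 3 rose and 0 fell, beside 18.5% and 18.4% over all genes (median log2 fold change 0.19, against 0.0066). The count of falls was 1 without siNC 1 or with no filter. SOX12, a SOXC factor like SOX4, rose from 25.2 to 33.7 CPM (0.42, SE 0.059, edgeR adjusted p = 3.14e-04), and SOX13, a SOXD factor, from 34.8 to 39.6 CPM (0.19, SE 0.061, adjusted p = 0.0348). SOX2, a pluripotency factor outside the naming rule and named after its values were seen, had 3 to 7 counts in siNC and 12 to 14 in siBYSL (adjusted p = 0.0215). SOX11, the third SOXC gene, had no row and was not analysed here. The count of rises was 1 without siNC 2, siNC 3 or siBYSL 2 or with the DESeq2 Wald test, and 5 without siBYSL 3. The SOX13 call was lost when any library but siBYSL 3 was left out (edgeR adjusted p = 0.0517 to 0.17), with no filter (adjusted p = 0.0714) and with the DESeq2 Wald test (adjusted p = 0.0635). The rise of SOX12 passed under every setting run.

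SNAI1 (ENSG00000124216.4, chromosome 20) encodes Snail, a zinc-finger repressor of CDH1 with a short-lived protein and transcript. It was scarce, with 36, 28 and 38 counts in the controls and 80, 106 and 73 after knockdown, or 1.29, 0.999 and 1.28 CPM against 2.77, 3.21 and 2.53 CPM. All siBYSL libraries lay about as far above siNC, in relative terms, as those of SOX4. SNAI1 rose by 1.26 on the log2 scale (SE 0.18, adjusted p = 3.34e-04 by the edgeR quasi-likelihood test), less precisely measured than SOX4, and it passed under every setting run (highest adjusted p = 0.0029).

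SNAI2 (ENSG00000019549.13, chromosome 8), which encodes the related repressor Slug, was much more abundant and changed less. Its levels were 34.9, 36.5 and 36.7 CPM in the controls and 47.7, 46.8 and 41.1 CPM after knockdown. Every siBYSL library lay above siNC, with siBYSL 3 nearest. SNAI2 rose by 0.33 on the log2 scale (SE 0.069, adjusted p = 0.00373, edgeR quasi-likelihood test), and it too passed under every setting. Per length the ratio of SNAI2 to SNAI1 was 13.5, 18.2 and 14.3 in the controls and 8.55, 7.25 and 8.06 after knockdown, without overlap of the groups.

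ZEB1 (ENSG00000148516.23, chromosome 10), a zinc-finger homeobox repressor, was not called. Its levels were 36.4, 39.2 and 37.0 CPM in the controls and 44.1, 45.7 and 38.3 CPM after knockdown, so that siBYSL 3 fell within the range of siNC. The log2 fold change was 0.19 (SE 0.074, edgeR adjusted p = 0.0712), or 0.26 without siBYSL 3, where it passed (adjusted p = 3.96e-04). It passed also with library totals (adjusted p = 0.0244) and with upper-quartile factors (adjusted p = 0.029). ZEB2 (ENSG00000169554.22, chromosome 2), its paralogue, stood at 7.80, 7.96 and 8.79 CPM in siNC and at 9.39, 8.35 and 7.60 CPM in siBYSL. The 2 groups interleaved (log2 fold change 0.045, adjusted p = 0.765), and without siBYSL 1 the sign turned (-0.034). Per kilobase of annotated exons ZEB1 was 13.3 ± 1.1 times as abundant as ZEB2 in siNC and 14.7 ± 1.1 times in siBYSL (SD, n = 3 each), a difference within the spread of libraries. The size of this ratio depends on the length used. ZEB2 has 25058 bases of annotated exons and a longest transcript of 9583. Per kilobase of the longest transcript, ZEB1 and ZEB2 stood at 5.99 and 0.854 CPM in siNC and at 6.81 and 0.882 CPM in siBYSL.

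The miR-200 family, which pairs with both ZEB transcripts, was not measured in these poly(A) libraries, and MIR200CHG, the host gene of miR-200c, had no row. The sequence of miR-200c-3p is given with its seed in capitals, because its reverse complement CAGTATT recurs in ZEB1 and ZEB2.

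hsa-miR-200c-3p: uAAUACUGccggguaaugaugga

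CAGTATT occurred 6 times in the longest 3′ UTR of ZEB1, 5 times in that of ZEB2, 2 times in that of FN1 and once in that of SNAI2, against 18.9% of tested genes with any copy. A match is a description of the sequence and not evidence of pairing in these cells.

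**Figure D2:**
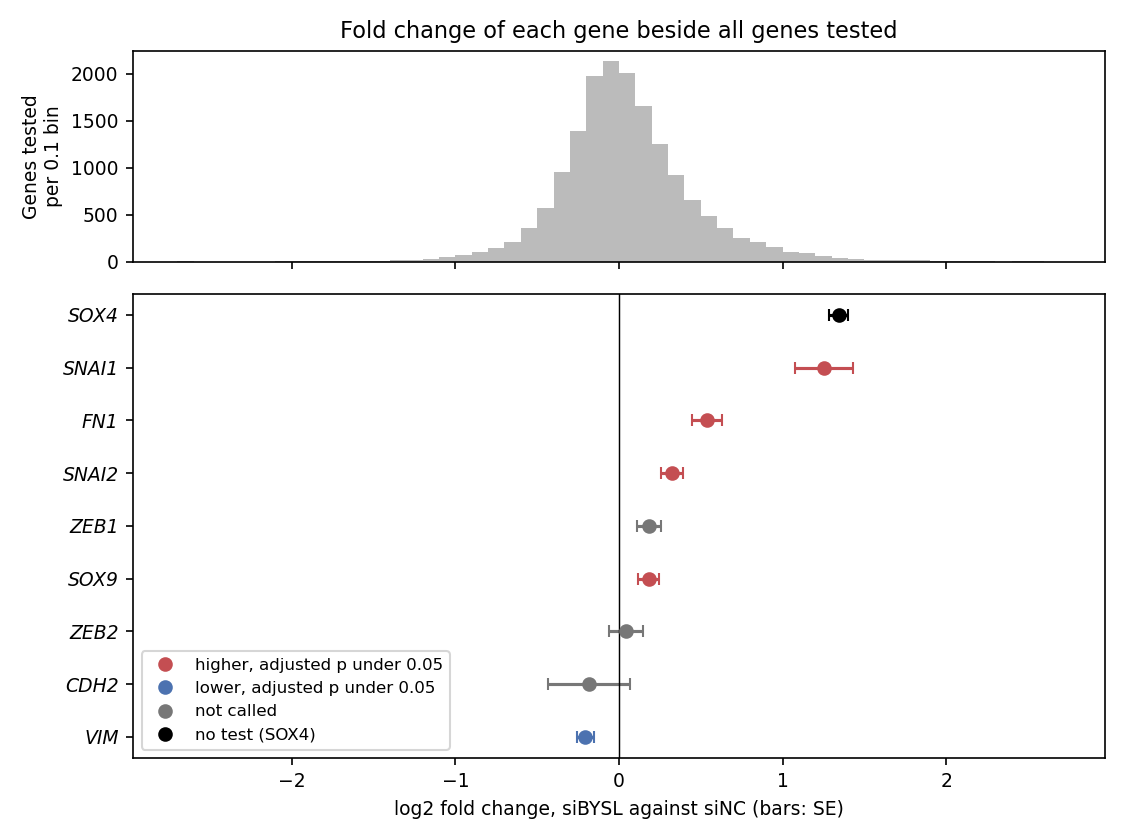
Upper panel, histogram of log2 fold changes of the genes tested (siBYSL against siNC, 0.1 per bin, values within ±2.7); lower panel, log2 fold change of each of the 9 genes with its SE. SOX4 (1.34, black, no test) and SNAI1 (1.26) lie in the sparse right tail of all genes, while the other genes lie between -0.21 and 0.54.

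Among the products of the mesenchymal state, FN1 rose, VIM fell and CDH2 was nearly absent. FN1 (ENSG00000115414.21, chromosome 2) encodes fibronectin, the extracellular glycoprotein to which integrins attach. It stood at 253.1, 285.0 and 261.8 CPM in the controls and at 438.4, 390.8 and 330.5 CPM after knockdown. All siBYSL libraries lay above siNC, but they spread over a wide range with siBYSL 3 the lowest. FN1 rose by 0.54 on the log2 scale (SE 0.091, adjusted p = 0.00103 by the edgeR quasi-likelihood test), with a range of 0.44 without siBYSL 1 to 0.64 without siBYSL 3.

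VIM (ENSG00000026025.16, chromosome 10) encodes vimentin, the intermediate filament protein of mesenchymal cells, and was the most abundant of the 9. It stood at 2455, 2395 and 2363 CPM in the controls and at 2082, 2080 and 2095 CPM after knockdown. The knockdown libraries were nearly equal and all lay lower than the controls. It fell by 0.21 on the log2 scale (SE 0.050, adjusted p = 0.00823, edgeR quasi-likelihood test), and the call was lost with library totals (-0.13, adjusted p = 0.0692) and without siNC 1 (-0.19, adjusted p = 0.0546). VIM-AS1, which overlaps VIM on the opposite strand, had means of 25.4 and 22.1 CPM (-0.20, SE 0.084, adjusted p = 0.0824). An annotated gene overlaps on the opposite strand of 6 of the 9 genes (SOX4, SOX9, ZEB1, ZEB2, VIM and CDH2). The libraries were directional, but whether the counting used strand is not given in the sources used here, so the share of opposite-strand reads in these 6 counts is unknown.

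CDH2 (ENSG00000170558.10, chromosome 18) encodes N-cadherin, the cadherin that replaces E-cadherin in many mesenchymal cells. Only 20, 23 and 18 counts were found in the controls and 19, 22 and 16 after knockdown, or 0.716, 0.821 and 0.606 against 0.659, 0.666 and 0.556 CPM. The groups overlapped, and with such counts the log2 fold change of -0.18 had an SE of 0.25 (edgeR adjusted p = 0.616), so that a change of modest size was not detectable at this depth. Of the 3 mesenchymal marker genes, VIM and FN1 were thus abundant in these cells and CDH2 lay under 1 CPM in every library.

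Compared per kilobase of annotated exons, the levels spanned from VIM at 466.1 ± 9.0 CPM per kilobase down to CDH2 at 0.144 ± 0.022 in siNC (SD, n = 3 each). Between them lay SOX9 (18.8 ± 0.96), FN1 (15.4 ± 0.95), SNAI2 (10.6 ± 0.29), SOX4 (4.71 ± 0.21), ZEB1 (4.34 ± 0.17), SNAI1 (0.705 ± 0.098) and ZEB2 (0.327 ± 0.021). In siBYSL, FN1 (22.3 ± 3.1) and SOX9 (21.3 ± 1.4) could not be ordered beyond their spread, and SOX4 (12.0 ± 0.20) drew close to SNAI2 (13.3 ± 1.05), while SNAI1 reached 1.68 ± 0.20. The order of FN1 and SOX9 in siNC turned when the longest transcript stood for the length (29.1 against 18.8 CPM per kilobase). So did that of SOX4 and ZEB1 (4.71 against 5.99) and that of SNAI1 and ZEB2 (0.705 against 0.854). The siBYSL levels depend on the length as well. Per kilobase of the longest transcript, FN1 stood at 42.15 and SOX9 at 21.3 CPM in siBYSL, and SNAI2 at 15.98 and SOX4 at 11.97.

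**Figure D3:**
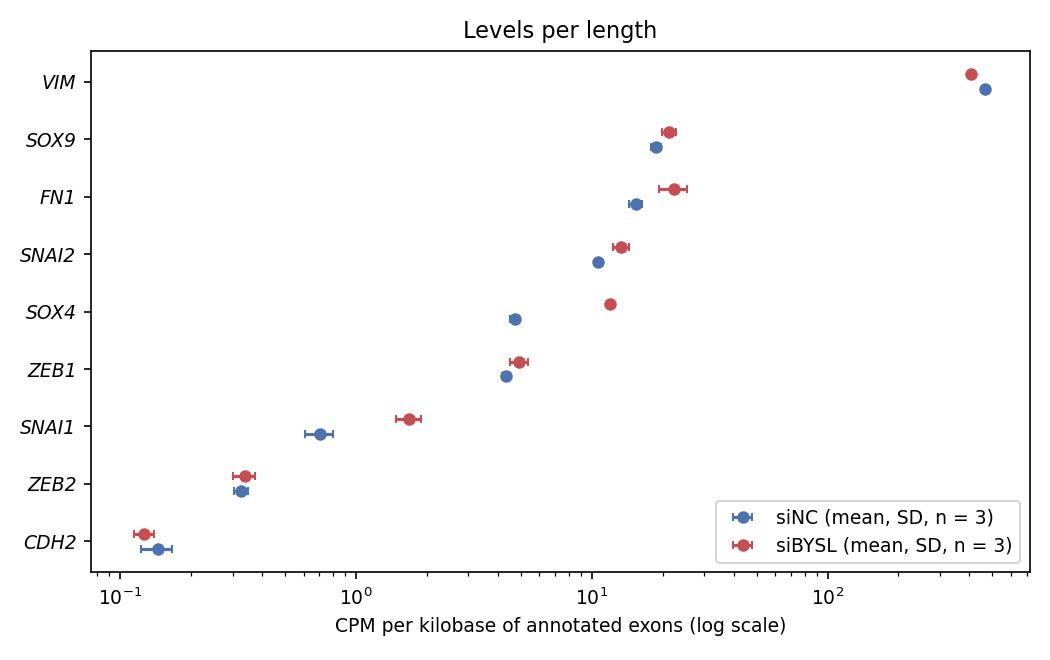
Level of each gene in CPM per kilobase of annotated exons, on a log axis, as mean and SD of 3 siNC (blue) and 3 siBYSL (red) libraries. VIM lies far above the rest, SOX4 moves from beside ZEB1 in siNC to beside SNAI2 in siBYSL, and ZEB2 and CDH2 are lowest in both groups.

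The genes around these regulators were followed in 11 related lists, of 185 genes in all, of which 131 were tested. Together 40 rose (30.5%, against 18.5% of all genes) and 24 fell (18.3%, against 18.4%), with a median log2 fold change of 0.10 against 0.0066 over all genes. Leaving out 1 library at a time gave 26 (without siNC 3) to 51 rises and 13 (without siNC 3) to 29 falls. The lists were drawn up by function with results of these data known, and no test of a list as a whole was made.

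Epithelial genes that are silenced in the transition moved both ways. Of 24 tested of 31, 9 rose and 6 fell (median 0.21), beside 18.5% and 18.4% over all genes. CDH1, which encodes E-cadherin and is the best known target of SNAI and ZEB repression, rose from 4.48 to 9.18 CPM. Its counts were 122, 128 and 134 in the controls and 276, 332 and 228 after knockdown, and the log2 fold change was 1.04 (SE 0.11, edgeR adjusted p = 6.64e-05). CDH1 thus rose together with SNAI1 and SNAI2. ELF3, an epithelial ETS factor, rose by 0.68 on the log2 scale (adjusted p = 7.61e-05) and EPCAM, the epithelial adhesion molecule, from 14.4 to 20.9 CPM (0.54, adjusted p = 1.64e-04). CLDN4, a tight-junction claudin, fell from 132.1 to 95.5 CPM (-0.47, SE 0.058, adjusted p = 1.33e-04). Without siNC 3 or siBYSL 2 there were 5 rises, and without siBYSL 2 or with library totals 3 falls, but the 4 genes named passed under every setting.

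Classical cadherins and their partners showed where cadherin transcripts lay in these cells. Of 5 cadherins tested besides CDH2, 2 rose and 1 fell (median 0.27), beside 18.5% and 18.4% over all genes. CDH11, the cadherin of osteoblasts and mesenchyme, rose from 101.9 to 123.0 CPM with overlapping groups (0.27, SE 0.087, adjusted p = 0.031), a call lost without siNC 1, siNC 3, siBYSL 1 or siBYSL 2 (edgeR adjusted p = 0.0846 to 0.124), each of which left CDH1 as the single rise. CDH4, or R-cadherin, fell from 25.2 to 18.8 CPM (-0.42, adjusted p = 0.00215). Per kilobase of annotated exons CDH11 was 53.4 ± 7.0 times as abundant as CDH2 in siNC and 72.5 ± 3.8 times in siBYSL, and CDH1 5.10 ± 0.78 and 11.7 ± 0.34 times (SD, n = 3 each). CDH2 had only 16 to 23 counts per library, so a small SD does not make these ratios precise. The CDH11 ratio is larger per kilobase of the longest transcript, where CDH11 and CDH2 stood at 14.8 and 0.165 CPM in siNC. Of 8 catenins and linkers 3 rose and 1 fell (median 0.15), beside the same 18.5% and 18.4%. The rises were JUP (plakoglobin) by 0.30, CTNNB1 (beta-catenin) from 298.3 to 358.1 CPM (0.26) and AFDN (afadin) by 0.35. VCL, vinculin, stood at -0.22 (adjusted p = 0.0361) and was not called without siNC 1, siNC 2, siNC 3 or siBYSL 2 (adjusted p = 0.0623 to 0.128), nor with library totals (adjusted p = 0.199) or upper-quartile factors (adjusted p = 0.0734), each leaving 0 falls.

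Of 21 tested genes of 28 for other mesenchymal effectors, 10 rose and 2 fell (median 0.20), beside 18.5% and 18.4% over all genes. LOXL2, a lysyl oxidase that crosslinks collagen, fell from 355.1 to 260.6 CPM (-0.45, edgeR adjusted p = 1.07e-04). COL5A1, a fibrillar collagen chain, rose from 104.6 to 149.8 CPM (0.52, adjusted p = 1.43e-04) and TGFBI, a secreted adhesion protein, from 76.6 to 93.7 CPM (0.29). The count of rises was 5 without siNC 1, 6 without siNC 2, 4 without siNC 3 and 5 without siBYSL 2, and that of falls 4 without siBYSL 3; the 3 genes named passed in each case. Fibroblast markers had a summed level of 13.9 to 16.6 CPM in the controls and 16.7 to 18.1 CPM after knockdown, with 1 of 3 tested higher and 4 of 7 (DCN, PDGFRA, COL3A1 and FAP) under 1 CPM. Endothelial markers summed to 9.55 to 10.6 and 11 to 12.2 CPM with VWF, CDH5 and TEK under 1 CPM, and leukocyte markers to 10.7 to 12.5 and 11.6 to 15.7 CPM with PTPRC and LYZ under 1 CPM. Luminal epithelial markers summed to 1640 to 1780 CPM in siNC and 1560 to 1920 CPM in siBYSL, with 2 of 6 higher and 1 lower. The part of such markers in these results was not tested.

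Intermediate filament genes besides VIM were split, with 2 of 8 higher and 2 lower (median -0.033), beside 18.5% and 18.4% over all genes. NES, or nestin, which copolymerizes with vimentin, rose from 12.1 to 22.6 CPM (0.90, SE 0.071, edgeR adjusted p = 7.67e-06), and SYNM, synemin, from 27.5 to 39.3 CPM (0.51, adjusted p = 2.24e-04). DST, a cytolinker of the plakin family, fell by 0.34 on the log2 scale (adjusted p = 0.00285), and LMNB1, lamin B1, stood at -0.22 (adjusted p = 0.0216). The LMNB1 call was lost without siNC 2, siNC 3 or siBYSL 2 and with library totals (adjusted p = 0.056 to 0.15), each leaving DST as the single fall.

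Other transcription factors of the transition held 2 rises and 2 falls among 10 tested of 16 (median 0.18), beside 18.5% and 18.4% over all genes. TCF3, whose products E12 and E47 bind E-boxes and repress CDH1, rose from 40.1 to 67.8 CPM (0.76, SE 0.054, edgeR adjusted p = 4.09e-06) and passed under every setting. FOXQ1, a forkhead factor, stood at 0.19 (adjusted p = 0.0105) and was not called without siNC 1 (adjusted p = 0.0587) or siNC 2 (adjusted p = 0.0501), where 1 rise was left. The chromatin protein HMGA2 stood at -0.26 (adjusted p = 0.00643) and the forkhead factor FOXC1 at -0.27 (adjusted p = 0.0179). FOXC1 was lost without siNC 1, siNC 3 or siBYSL 1 (adjusted p = 0.0528 to 0.0887), leaving 1 fall, and both were lost with library totals (adjusted p = 0.0505 and 0.0736).

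Partners that act on SNAI and ZEB proteins held 3 rises and 6 falls among 26 tested (median -0.003), beside 18.5% and 18.4% over all genes. HDAC1, a histone deacetylase recruited by Snail, rose from 166.4 to 207.1 CPM (0.32, SE 0.048, edgeR adjusted p = 4.88e-04). GSK3B, the kinase that marks Snail for destruction, rose from 37.3 to 46.1 CPM (0.31, adjusted p = 0.00488), while BTRC, the ubiquitin ligase receptor that reads this mark, fell from 30.6 to 23.0 CPM (-0.41, SE 0.070, adjusted p = 0.00101). The corepressor RCOR1 stood at -0.39 (adjusted p = 0.0117), a call lost without siNC 3 (adjusted p = 0.057). Falls numbered 3, 2 and 1 without siNC 1, 2 and 3, respectively, and 2 with library totals, and rises 6 without siBYSL 3. Protein levels and stability were not measured.

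Of 9 genes reported as targets of SOX4, 4 rose and 2 fell (median -0.030), beside 18.5% and 18.4% over all genes. CEMIP2, a cell-surface hyaluronidase, rose from 26.5 to 40.4 CPM (0.61, SE 0.096, edgeR adjusted p = 6.38e-04), the semaphorin and VEGF co-receptor NRP1 from 236.3 to 307.7 CPM (0.38, adjusted p = 0.00107) and the matrix glycoprotein TNC, tenascin-C, from 8.91 to 13.9 CPM (0.64, adjusted p = 0.00362). DICER1, the microRNA-processing RNase, fell from 58.3 to 38.9 CPM (-0.58, SE 0.076, adjusted p = 1.89e-04) and held a guide heptamer in its 3′ UTR. The second fall, EZH2, the Polycomb methyltransferase, lies outside the naming rule and stood at -0.15 (adjusted p = 0.0479). There was 1 fall, DICER1, without siNC 1, siNC 2, siNC 3, siBYSL 1 or siBYSL 2 and with library totals or the DESeq2 Wald test.

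Genes of the TGF-beta pathway, an inducer of SNAI1, ZEB1 and SOX4 in many cells, held 5 rises and 2 falls among 13 tested (median 0.16). Over all genes 18.5% rose and 18.4% fell. The list took in the pathway inhibitors SMAD7, SKI and SKIL as well as ligands, receptors and other SMADs. LTBP1, which anchors latent TGF-beta in the matrix, rose from 48.0 to 99.1 CPM (1.05, SE 0.10, edgeR adjusted p = 3.23e-05), TGFB3 from 2.44 to 4.15 CPM (0.76) and the co-receptor TGFBR3 from 23.1 to 31.5 CPM (0.44). SMAD3, the receptor-activated effector, fell from 204.9 to 150.9 CPM (-0.44, adjusted p = 3.49e-04). The second fall, the inhibitor SKIL, lies outside the naming rule and stood at -0.34 (edgeR adjusted p = 0.0158). Rises numbered 8 without siBYSL 3, with library totals or with upper-quartile factors, and 1 fall was left without siNC 1, siNC 3 or siBYSL 2 or with library totals.

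Of the antisense and host transcripts, 5 of 10 were tested. They held 1 rise and 1 fall (median 0.17), beside 18.5% and 18.4% over all genes. SNAI3-AS1 rose from 4.13 to 5.59 CPM (0.44, adjusted p = 0.00982), while its partner SNAI3 was too low to test. ZEB1-AS1, which overlaps the start of ZEB1 on the other strand, stood at 4.39 and 4.93 CPM (0.17, edgeR adjusted p = 0.392). MEST, the imprinted gene whose intron holds the miR-335 hairpin, fell from 49.8 to 19.6 CPM (-1.35, SE 0.070, adjusted p = 8.00e-07). SOX4 is a reported target of miR-335, whose mature sequence is shown with its seed in capitals.

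hsa-miR-335-5p: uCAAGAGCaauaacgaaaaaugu

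The microRNA was not measured here. The reverse complement of its seed, GCTCTTG, was not among the letters of the longest annotated 3′ UTR of SOX4. It occurred once in that of ZEB2 and in 13.3% of tested genes with a 3′ UTR. Only this full heptamer was searched, so a shorter or different site in SOX4 would have been missed. MEST itself held 2 guide heptamers of the BYSL siRNA in its longest 3′ UTR, shown because the gene fell. Over the 11 lists the guide heptamer stood in 5 of 24 genes that fell (DICER1, DST, FOXC1, MEST and PKP2). It stood also in 5 of 39 that rose (SOX2, COL5A1, NES, PATJ and SMAD2). In all, 22 of 127 listed genes with a 3′ UTR held it, against 11.9% of all tested genes with one. Its part in any of these values was not tested.

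MEST, guide heptamer 1, chr7:130505960-130505986, plus strand, GRCh38: aagtcaccatGCTGAATgtacactgat
MEST, guide heptamer 2, chr7:130506118-130506144, plus strand, GRCh38: agcaaatggtGCTGAATactttttttt

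**Figure D4:**
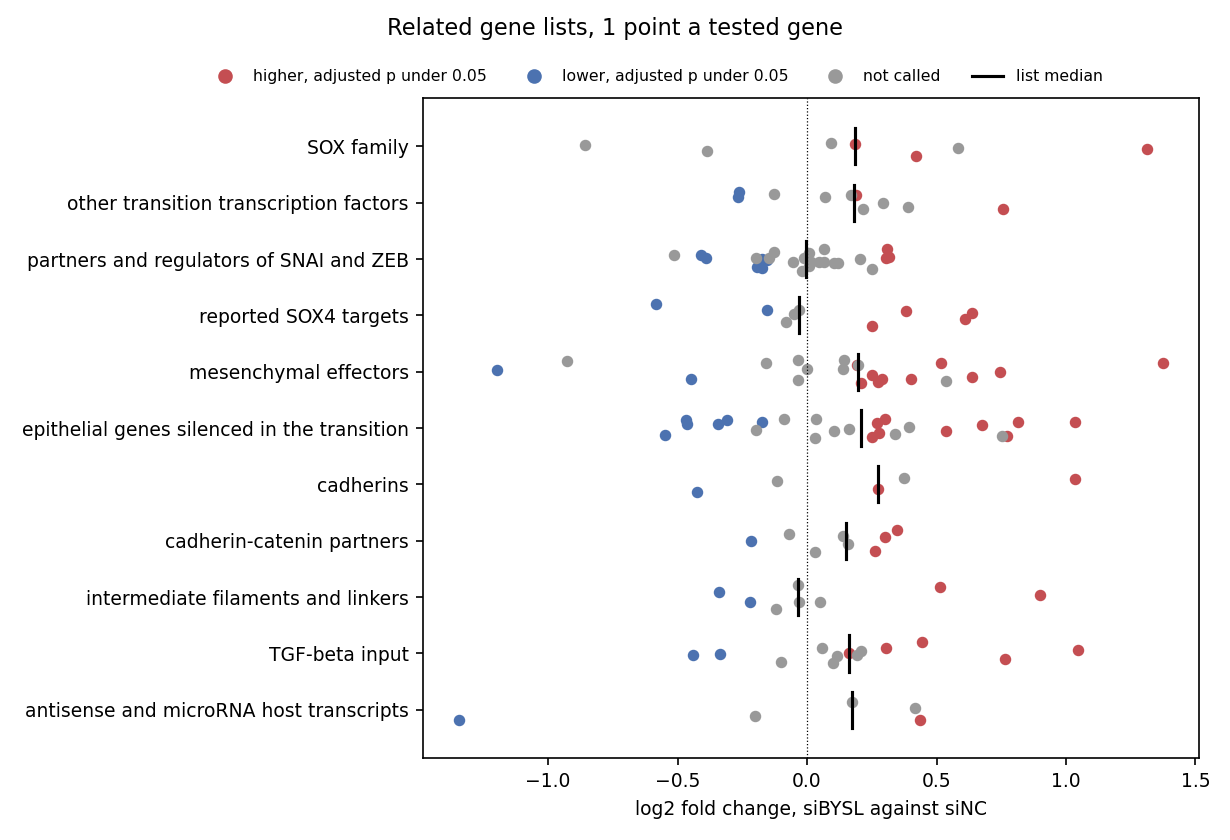
Log2 fold change, siBYSL against siNC, of each tested gene in 11 related lists (1 point a gene, vertical spread only to separate points; red higher and blue lower at an adjusted p under 0.05, grey not called; black bar, list median). List medians run from -0.033 to 0.27, with MEST (-1.35) the lowest point and points of both colours in most lists.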

How the data were processed

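Poly(A) RNA was sequenced from 3 siNC and 3 siBYSL cultures of MDA-MB-231 cells as directional 150-nt paired-end libraries, per the labels' protocols. The deposited table holds raw counts per gene, as whole numbers. HISAT2, DESeq2 and GRCh38.p13 appear, their roles and versions unstated, per the submitters' processing notes. The counter, the annotation release and any filter were not given in the sources used here.

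Counts were filtered with filterByExpr, scaled with TMM factors (0.9645 to 1.04) and compared with the edgeR 4.0.16 quasi-likelihood F test (R 4.3.3, robust) on a design with the group alone. P-values were adjusted by Benjamini-Hochberg over the 16412 genes tested, and calls were made below 0.05. The SE is the absolute log2 fold change over the square root of F. The p-values describe the spread between 3 and 3 cultures. Lengths, coordinates and 3′ UTRs came from GENCODE 29 by gene identifier, promoters and microRNAs from RefSeq (GRCh38.p14).

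The members and lists were chosen with earlier results of these data known. Named genes were BYSL, the members, up to 4 called genes of each list with the smallest p and a mean of 1 CPM or more, CDH1, SOX11, SOX12 and the 5 profiles nearest to SOX4; some that the rule names are not reported here. The test was checked on simulated counts, with 50 of 16412 genes changed at each fold. It called 42.0% in the right direction at 1.25-fold, 76.0% at 1.5-fold, 84.0% at 2-fold and 100% at 4-fold, with 10 false calls. Far fewer genes changed there than were called in the data, and no simulated library was made to stand apart as siBYSL 3 did. Alternatives were no filter, upper-quartile factors, library totals, DESeq2 1.42.0 size factors, 1 CPM or more in 3 libraries, the DESeq2 Wald test, limma 3.58.1 voom, the replicate block and each library left out.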

Additional observations from a re-analysis of the deposited data

How the results depend on the processing

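Of 53 named genes recomputed under the alternatives, 41 kept their call and sign in every setting that tested them and 12 did not; CDH2, among the 41, did not pass the stricter filter and has no value there. The single sign that turned was that of ZEB2, which was never called: 0.045 with all libraries and -0.034 (without siBYSL 1) to 0.112 (without siBYSL 3) when a library was left out. Over all genes, 3032 were higher and 3027 lower, against 4106 and 1989 with library totals (67.4% of calls higher) and 3630 and 2418 with upper-quartile factors (60.0%). Leaving out 1 library gave 2121 to 3929 higher and 2105 to 4075 lower, the extremes being without siNC 3 and without siBYSL 3. Among the 8 genes other than SOX4, rises numbered 3 to 5 and falls 0 (without siNC 1) to 1 when a library was left out, and falls 0 with library totals. In the related lists the same range was 26 to 51 rises and 13 to 29 falls, and library totals gave 12 falls in place of 24. The passenger heptamer was found in 2 of the 9 genes (SOX9 and ZEB2) when all annotated 3′ UTRs were searched, in place of 1. With the replicate block 2802 genes were higher and 2764 lower, SOX13 was not called (adjusted p = 0.0602), the other SOX genes held 2 rises and 1 fall, the partners of SNAI and ZEB 3 falls in place of 6 and the reported SOX4 targets 1 in place of 2. The labels do not say that numbers pair cultures, and deviations of same-numbered libraries correlated at -0.129, 0.0596 and 0.0106, so they were not taken as pairs. Depth limited CDH2 and SNAI1 most, which had 16 to 23 and 28 to 106 counts per library.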
